A study of Mus musculus with 12 samples.

Results

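The solute carriers described here are the 167 genes of the deposited table that carry an Slc symbol with a family number, a family letter and a member number, and that had at least 10 reads in at least 3 of the 12 libraries. The table held 16570 genes, of which 317 had such a symbol. The 45 genes of the mitochondrial Slc25 family were left out, and so were Slc4a2, Slc2a1, Slc7a11, Slc40a1, Slc11a1, Slc11a2 and Slc30a1, which left 265 candidates, and 98 of these fell under the read minimum. Just outside that minimum were Slc9a4, Slc17a8, Slc4a11 and Slc16a12, each with 10 reads in 2 libraries, and among those just inside it were Slc6a19 and Slc26a10 with 5 libraries. All 167 members also passed the low-count filter of the test. Of these, 4 are not carriers in spite of their symbols: Slc9a3r1 and Slc9a3r2 encode scaffold proteins, and Slc7a6os and Slc4a1ap are named only after a neighbouring gene or a binding partner. Slc3a2 encodes the heavy chain that brings amino acid carriers to the cell surface.

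RNA was sequenced from bone marrow-derived macrophages of C57BL/6J mice aged 6 to 8 weeks. The cells had 2 days with M-CSF at 50 ng/mL, the survival factor of macrophages, and were then divided into 4 groups of 3 libraries, all of which kept M-CSF at 50 ng/mL for another 2 days. One group had M-CSF alone, and the others also had RANKL, the cytokine that drives macrophages to become osteoclasts, at 100 ng/mL. Of the RANKL groups, one had no inhibitor, one had BMS309403 at 1 µM and one had RHC80267 at 1 µM. BMS309403 blocks FABP4, a protein that binds fatty acids in macrophages and fat cells. RHC80267 blocks diacylglycerol lipase, which releases fatty acids from diacylglycerol. The labels' growth text gives 4 days of M-CSF with RANKL for osteoclast formation, while their treatment text gives 2 days, which is the time used here. No label tells whether the 3 libraries of a group came from different cultures or different mice. The p-values therefore reflect only how much these libraries vary, which can be technical variation.

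Solute carriers are membrane proteins that move ions, nutrients and metabolites across the cell surface and the membranes of organelles, either down a gradient or coupled to the gradient of another ion. In an osteoclast, the cell that dissolves bone, they supply fuel and amino acids, exchange bicarbonate and protons while the cell acidifies the bone surface, and load or empty lysosomes, whose contents are secreted onto bone. Each family shares sequence, but its members can differ in substrate and in the membrane where they sit.

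The libraries held between 17760844 and 18344989 expected counts, and the 167 genes together took between 1.064% and 1.186% of them. Levels are in CPM, counts relative to the scaled library size, with the SD over the 3 libraries of a group, and differences are log2 fold changes ± SE. A gene is called, and said to have risen or fallen, at an edgeR adjusted p below 0.05 over all 12168 genes tested. Summed CPM over 10 osteoclast markers ran from 174 to 200.1 in the M-CSF libraries, from 8433 to 10466 with RANKL, from 6896 to 7776 with RANKL and BMS309403, and from 16517 to 18654 with RANKL and RHC80267. All 10 of these genes had counts in every group, but some were close to none with M-CSF alone. There Calcr was at 0.0187 ± 0.0324 CPM and Oscar at 0.0374 ± 0.0324 CPM, while Nfatc1 was the highest of the 10 at 66.4 CPM. Macrophage markers, 8 genes, summed to between 19356 and 21382 CPM with M-CSF alone and to between 9777 and 11758 CPM in the RANKL groups. The samples are labelled both as osteoclast and as macrophage, and counts from both marker sets were found in all of them. Because whole cultures were sequenced, fewer cells of a type and less RNA per cell cannot be told apart.

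The 167 genes covered a wide range of levels. With M-CSF alone, 23 of them had a mean below 1 CPM and 30 a mean of 100 CPM or more, with a median of 25.6 CPM. The corresponding numbers were 14 and 31 with RANKL, 16 and 32 with BMS309403, and 11 and 30 with RHC80267. The 5 most abundant members of each group took between 29.12% and 31.9% of all carrier CPM. On the authors' FPKM, which is per transcript length and so can be compared between genes, the haem carrier Slc48a1 was highest with M-CSF alone (FPKM 264 ± 11.3), followed by the taurine carrier Slc6a6 (238 ± 6.93) and the large neutral amino acid carrier Slc43a2 (FPKM 170 ± 2.43, SD, n = 3). With RANKL the order by FPKM was Slc6a6 (216 ± 4.86), the sugar phosphate exchanger Slc37a2 (160.1 ± 13.4) and Slc48a1 (153 ± 1.24). The FPKM of Slc37a2 and Slc48a1 overlapped in that group, where the lowest Slc37a2 library had 149 and the highest Slc48a1 library had 155. With RHC80267, Slc37a2 ranked first (FPKM 233 ± 13.5), above Slc6a6 (185 ± 7.15) and Slc48a1 (183 ± 1.67), and the sodium/proton antiporter Slc9b2 had an FPKM of 148 ± 9.80.

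The first comparison, RANKL against M-CSF alone, asks how carrier genes differ once macrophages receive the osteoclast signal. Of the 167 genes, 58 rose, 64 fell and 45 were not called, so 73.1% were called, beside 61.2% of all genes tested. By direction these were 34.7% and 38.3% of the members, beside 31.4% and 29.8% of all genes. More than 2-fold changes were seen in 22 genes that rose (13.2% of the members, beside 6.49% of all genes) and in 8 that fell (4.79%, beside 2.77%). The median log2 fold change was -0.0043 for the members and 0.0028 for all genes, while the median size of a change, taken without its sign, was 0.342 and 0.246. The carrier genes were divided between both directions. Past 2-fold more rose than fell, among the members as among all genes tested.

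Slc9b2 had the highest log2 fold change of the 27 genes in the class of ion carriers. It encodes an antiporter that exchanges sodium for protons and is known as an osteoclast gene. The M-CSF libraries had 0.840, 0.894 and 1.07 CPM and the RANKL libraries 182, 146 and 145 CPM, a difference of 7.39 ± 0.15 on the log2 scale (edgeR adjusted p = 3.27e-20). No RANKL library came near the M-CSF libraries. Slc12a5, a potassium and chloride cotransporter best known from neurons, went from 0.616 ± 0.0982 to 9.85 ± 0.775 CPM (log2 3.98 ± 0.20). Slc4a3, a chloride/bicarbonate exchanger, rose by 2.13 ± 0.17 on the log2 scale to 5.25 ± 0.380 CPM, and Slc4a7, a sodium/bicarbonate cotransporter, rose by 0.85 ± 0.06 to 125 ± 8.26 CPM. In the opposite direction, the sodium/calcium exchanger Slc8a1 fell from 149 ± 3.10 to 87.3 ± 1.96 CPM (log2 -0.77 ± 0.05). Of the 27 genes in the class of sodium, proton, potassium, calcium, chloride, bicarbonate and sulphate carriers, 11 rose and 9 fell. These were 40.7% and 33.3%, beside 31.4% and 29.8% of all genes. The class takes in Slc9a3r1, Slc9a3r2 and Slc4a1ap, which are not carriers.

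The sodium/proton exchangers held 7 members, of which 2 rose and 3 fell (28.6% and 42.9%, beside 31.4% and 29.8% of all genes). Slc9b2 and Slc9a5 rose, the second by 1.28 ± 0.14 to 6.20 ± 0.707 CPM. The fallers were those of endosomes and the Golgi: Slc9a9 (log2 -0.91 ± 0.05, from 281 to 149 CPM), Slc9a7 (-0.44 ± 0.04) and Slc9a8 (-0.33 ± 0.05).

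Promoter sequence is shown next for members that rose more than 2-fold with RANKL, because AP-1, the Fos and Jun dimer that acts downstream of RANKL, has a short recognition motif that can be looked for by its letters. The sequences are the 250 bases before the transcription start in RefSeq (GRCm38.p6), on the gene's strand and 5′ to 3′. Capitals mark TGANTCA, the AP-1 motif, which reads as the same pattern on both strands. The genes were chosen after their values and matches were seen. Slc9b2 lies first, chr3:135307450-135307699 on the plus strand, followed by Slc37a2 at chr9:37255739-37255988 on the minus strand, the 2 starts of Slc6a17 at chr3:107500741-107500990 and chr3:107518019-107518268 on the minus strand, and the upstream start of Slc12a5 at chr2:164960596-164960845 on the plus strand.
Slc9b2: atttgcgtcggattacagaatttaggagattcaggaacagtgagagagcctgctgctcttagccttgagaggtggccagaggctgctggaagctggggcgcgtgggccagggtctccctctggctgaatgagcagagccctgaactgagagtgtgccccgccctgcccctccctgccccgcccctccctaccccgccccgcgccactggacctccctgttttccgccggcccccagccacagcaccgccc
Slc37a2: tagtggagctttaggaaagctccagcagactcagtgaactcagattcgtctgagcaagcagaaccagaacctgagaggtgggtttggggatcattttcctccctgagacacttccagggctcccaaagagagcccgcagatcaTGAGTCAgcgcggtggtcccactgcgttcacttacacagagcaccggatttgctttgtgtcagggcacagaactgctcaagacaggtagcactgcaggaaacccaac
Slc6a17, first start: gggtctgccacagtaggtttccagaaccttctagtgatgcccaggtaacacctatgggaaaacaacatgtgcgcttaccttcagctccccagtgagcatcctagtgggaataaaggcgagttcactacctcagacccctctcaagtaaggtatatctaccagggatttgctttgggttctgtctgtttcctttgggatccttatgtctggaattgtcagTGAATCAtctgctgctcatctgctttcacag
Slc6a17, second start: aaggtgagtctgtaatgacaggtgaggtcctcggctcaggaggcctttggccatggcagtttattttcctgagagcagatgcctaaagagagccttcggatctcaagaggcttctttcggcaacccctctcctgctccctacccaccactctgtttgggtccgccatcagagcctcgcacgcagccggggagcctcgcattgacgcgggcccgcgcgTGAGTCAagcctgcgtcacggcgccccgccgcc
Slc12a5: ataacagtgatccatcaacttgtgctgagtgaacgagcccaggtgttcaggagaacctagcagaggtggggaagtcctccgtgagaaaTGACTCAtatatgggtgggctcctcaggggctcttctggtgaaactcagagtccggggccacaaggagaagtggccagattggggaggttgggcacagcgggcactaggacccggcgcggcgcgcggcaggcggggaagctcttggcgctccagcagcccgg

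The motif began 107 bases before the start of Slc37a2, 31 and 33 bases before the starts of Slc6a17 and 162 bases before that of Slc12a5 (listed as -107, -31, -33 and -162). No match lay in the window of Slc9b2, which says only that these letters are not there. The downstream start of Slc12a5, whose sequence is not printed, held no AP-1 match either. RefSeq promoters were matched by gene ID for 126 of the 167 genes. Over windows of 300 bases, which add 50 bases after the start, 12 of these 126 genes held the motif (9.52%), beside 8.97% of all 27025 genes with a promoter and 6.44% of the 9742 that were tested. Of the 45 matched members that rose with RANKL 6 held it (13.3%), and of the 50 that fell 6 did (12%). Slc37a2, Slc6a17, Slc12a5 and Slc9a3r2, which are among the 6 risers, rose more than 2-fold and were singled out after the matches were seen. The E-box CACGTG was present in 21 of 126 member genes (16.7%) and in 11.7% of the tested genes. For the antioxidant response element TGACNNNGC, which can overlap an AP-1 match, the numbers were 28 of 126 (22.2%) and 17.2%. The motif of ATF4, the amino acid response element TGATGNAA, was found in 6 of 126 (4.76%) and in 2.86% of tested genes, CRE TGACGTCA in 2 (1.59% and 3.55%), the interferon element core GAAANNGAA in 9 (7.14% and 8.9%) and PU.1 GAGGAAGT in 6 (4.76% and 4.15%). All were searched on both strands, and a match is a description of letters, not a bound site.

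**Figure D1:**
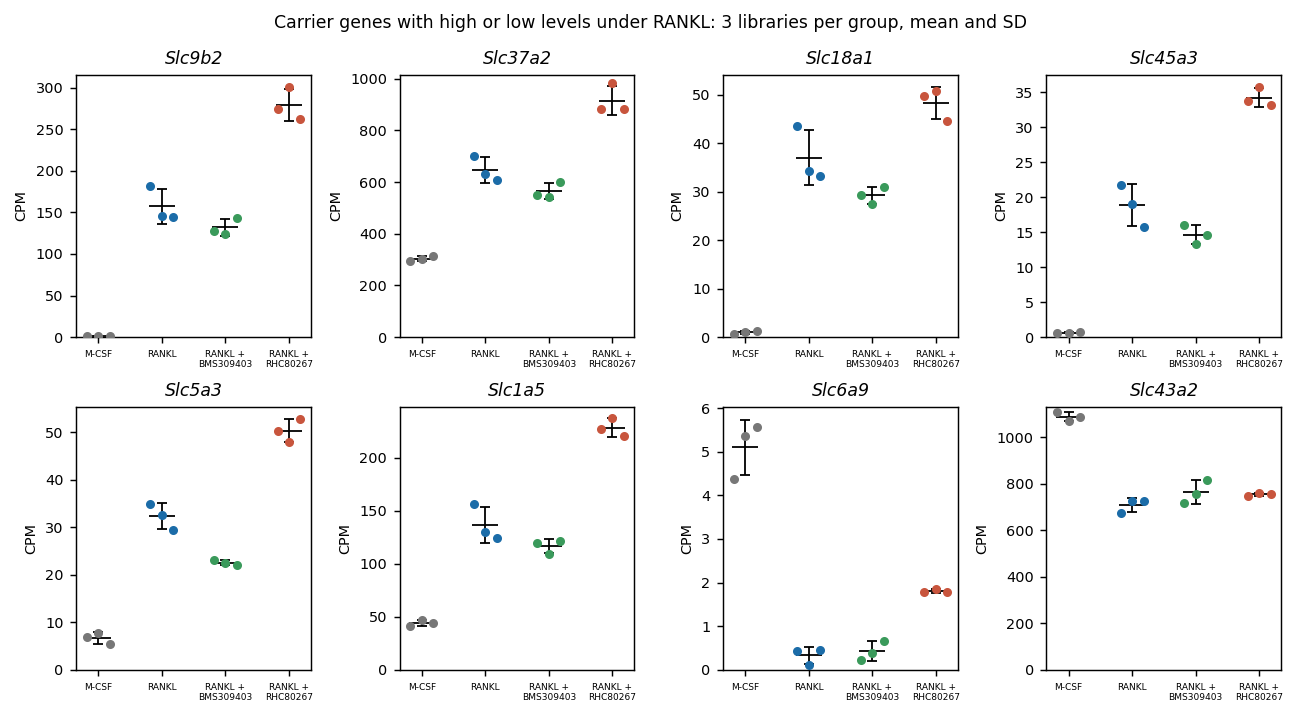
Levels in CPM (linear axis from 0) of 8 carrier genes in each of the 12 libraries, by group, with points for libraries and a bar with whiskers for the mean ± SD. Slc9b2, Slc18a1 and Slc45a3 lie near 0 with M-CSF alone and highest with RHC80267, while Slc6a9 and Slc43a2 are highest with M-CSF alone.

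Carriers of sugars and polyols moved in both directions under RANKL, with 4 of 13 rising and 7 falling. By share this was 30.8% and 53.8%, beside 31.4% and 29.8% of all genes. Slc37a2, which exchanges sugar phosphates and has been placed on the secretory lysosomes of osteoclasts, had 295, 303 and 312 CPM with M-CSF and 702, 631 and 607 CPM with RANKL. The groups did not overlap and differed by 1.09 ± 0.05 on the log2 scale (edgeR adjusted p = 8.76e-14). Slc5a3 takes up myo-inositol with sodium, an osmolyte and a precursor of phosphoinositides. Its libraries had 6.89, 7.77 and 5.39 CPM with M-CSF and 35.0, 32.7 and 29.5 CPM with RANKL (log2 2.28 ± 0.09). Slc45a3, of a family of proton-coupled sugar carriers, rose from 0.598 ± 0.0660 to 18.9 ± 3.01 CPM (log2 4.96 ± 0.18). The fallers included the urate and glucose carrier Slc2a9 (log2 -0.80 ± 0.06, from 35.7 to 20.5 CPM) and the neuronal-type glucose carrier Slc2a3 (-0.46 ± 0.05, from 30.8 to 22.4 CPM).

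Amino acid, amine and peptide carriers were the class with most members, 35, of which 14 rose and 14 fell. In each direction that was 40%, beside 31.4% higher and 29.8% lower of all genes. Slc7a6os, which is not a carrier, is among the 35. Slc1a5, the sodium-coupled carrier of glutamine and small neutral amino acids, went from 41.1, 46.7 and 44.4 CPM to 157, 130 and 125 CPM (log2 1.64 ± 0.07). The creatine carrier Slc6a8 rose from 93.7 ± 4.78 to 211 ± 7.41 CPM (log2 1.17 ± 0.04), and the arginine and lysine carrier Slc7a1 rose by 0.62 ± 0.08 to 33.4 ± 4.49 CPM. Both are carriers of the cell surface. The glutamate carrier Slc1a2 rose to a low level (log2 3.10 ± 0.49, 1.01 ± 0.201 CPM with RANKL), and so did the serotonin carrier Slc6a4 (2.40 ± 0.25, 4.86 ± 0.341 CPM). Slc6a17, a vesicular carrier of neutral amino acids, had 1 count over the 3 M-CSF libraries and 140 over the 3 RANKL libraries, a ratio of 141 with an exact 95% interval from 24.9 to 5608. Such an interval covers counting error only.

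The amino acid carriers that fell were led by Slc6a9, the glycine carrier, with 4.37, 5.37 and 5.56 CPM in the M-CSF libraries and 0.437, 0.110 and 0.448 CPM in the RANKL libraries (log2 -3.91 ± 0.29). Slc6a12, which takes up betaine and GABA, went from 23.9 ± 3.75 to 5.67 ± 0.212 CPM (log2 -2.08 ± 0.16). These 2 genes did not overlap between groups. Among genes for uptake of essential amino acids and its control 27.3% rose and 36.4% fell, beside 31.4% and 29.8% of all genes. Of these 11 genes, 3 rose (Slc1a5, Slc7a1 and the glutamine carrier Slc38a2) and 4 fell. Slc43a2, one of the most abundant of these by CPM, went from 1107, 1070.2 and 1087 CPM to 672, 724.2 and 724.4 CPM (log2 -0.62 ± 0.04). The light chain Slc7a8 fell by 0.74 ± 0.05 on the log2 scale, its partner heavy chain Slc3a2 by 0.27 ± 0.04, and the light chain Slc7a7 by 0.30 ± 0.06. Slc7a5, the light chain that carries leucine into many growing cells, had 10.04 ± 1.56 and 11.5 ± 1.81 CPM and was not called (log2 0.20 ± 0.13). Slc6a6, the most abundant member by CPM in the RANKL group, fell by 0.17 ± 0.04, from 1403 ± 32.7 to 1245 ± 32.1 CPM.

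Lysosomal carriers, which move the products of digestion out of the lysosome, were represented by 13 genes. With RANKL 12 of them fell (92.3%, beside 29.8% of all genes tested) and 1, Slc37a2, rose (7.69%, beside 31.4%). The median log2 fold change of the 13 was -0.36, beside 0.0028 for all genes. The list was drawn up with earlier results of these data known. The haem carrier Slc48a1 went from 596, 565 and 616 CPM to 336, 334 and 339 CPM (log2 -0.82 ± 0.04). Slc26a11, a carrier of sulphate and chloride, fell by 0.80 ± 0.05 to 55.2 ± 5.08 CPM, and Slc46a3 fell by 0.76 ± 0.06 to 78.6 ± 7.86 CPM. Smaller changes were those of Slc38a7 (log2 -0.42 ± 0.05), a glutamine and asparagine carrier, and of the peptide and histidine carriers Slc15a3 (-0.40 ± 0.04) and Slc15a4 (-0.19 ± 0.05). The sialic acid carrier Slc17a5 (-0.15 ± 0.05), the arginine sensor Slc38a9 (-0.11 ± 0.05) and the nucleoside carrier Slc29a3 (-0.09 ± 0.04) were near the limit, and each lost its call when certain single libraries were left out. Macrophage markers fell with RANKL as well, 7 of 8 of them, and their part in these values was not tested.

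**Figure D2:**
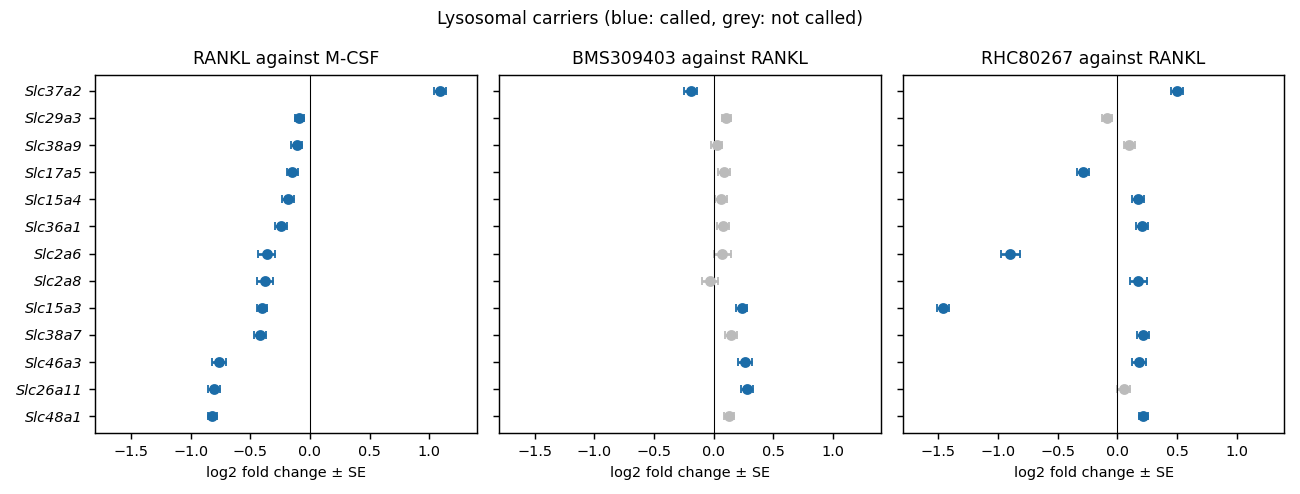
Log2 fold change ± SE of the 13 lysosomal carriers in each comparison, blue where called and grey where not. With RANKL 12 of the 13 lie below 0 and Slc37a2 above it, whereas with RHC80267 Slc15a3 and Slc2a6 lie far below the others.

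The 16 members on the list of zinc carriers were all called with RANKL, beside 61.2% of all genes tested. In each direction there were 8 (50%, beside 31.4% higher and 29.8% lower of all genes). Most changes were small: their median size, taken without sign, was 0.228 on the log2 scale, beside 0.246 for all genes. Slc39a12, a Slc39 member that the list does not hold and that is named after its values were seen, fell as well, at a low level, from 0.915 to 0.369 CPM (log2 -1.30 ± 0.35). Zinc carriers of the Slc39 family bring zinc into the cytosol and those of the Slc30 family take it out. Slc39a13, a carrier of the secretory pathway that is needed in connective tissue, rose from 27.1 ± 0.735 to 54.9 ± 4.67 CPM (log2 1.02 ± 0.06), and the surface carrier Slc39a1, the most abundant zinc carrier by FPKM, rose by 0.47 ± 0.04, from 180.0 ± 1.03 to 249 ± 11.8 CPM. On the list, falls of more than 2-fold were seen in Slc39a8 (log2 -1.35 ± 0.14, from 13.3 to 5.22 CPM), which also carries manganese, and in the intestinal-type zinc carrier Slc39a4 (-1.14 ± 0.10, from 23.0 to 10.4 CPM). Among the exporters Slc30a6 rose by 0.34 ± 0.07 and Slc30a4 fell by 0.42 ± 0.07. Calls of Slc39a6, Slc39a14, Slc30a9 and Slc39a7, whose log2 fold changes were -0.12, -0.21, 0.13 and 0.09, were lost in some alternative analyses, and Slc39a14 was at -0.12 without RANKL replicate 2.

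In the remaining classes the values were as follows. Slc18a1, which loads vesicles with monoamines, had 0.560, 1.12 and 1.24 CPM with M-CSF and 43.5, 34.4 and 33.2 CPM with RANKL (log2 5.24 ± 0.17). The vesicular polyamine carrier Slc18b1 was at 1.51 ± 0.110 and 2.16 ± 0.0256 CPM (log2 0.51 ± 0.21), a call that several alternatives lost. Both phosphate carriers rose, Slc20a2 by 0.58 ± 0.07 to 25.9 ± 1.60 CPM and Slc20a1 by 0.21 ± 0.04 to 74.3 ± 1.82 CPM. The kidney-type urea carrier Slc14a2 had 2 counts over the M-CSF libraries and 151 over the RANKL libraries, a ratio of 76.0 with an exact 95% interval from 20.7 to 634, while the erythrocyte-type urea carrier Slc14a1 fell by 1.20 ± 0.15 on the log2 scale to 3.54 ± 0.674 CPM. The dicarboxylate carrier Slc13a3 rose by 1.75 ± 0.14 to 21.7 ± 1.65 CPM. The lactate carriers had smaller changes: Slc16a1 rose by 0.17 ± 0.06, a call lost in some alternatives, Slc16a7 rose by 0.35 ± 0.04 and Slc16a3, the exporter of glycolytic cells, fell by 0.37 ± 0.06.

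Of the 14 vitamin, haem, choline and nucleoside carriers 9 fell and 3 rose (64.3% and 21.4%, beside 29.8% and 31.4% of all genes). The class median log2 fold change was -0.35. The vitamin C carrier Slc23a2 fell from 213 ± 2.16 to 132 ± 4.36 CPM (log2 -0.70 ± 0.04) and the nucleoside carrier Slc28a2 by 0.56 ± 0.07. Rising members were the choline carrier Slc44a1 (log2 0.96 ± 0.04, from 109 to 213 CPM), the equilibrative nucleoside carrier Slc29a1 (0.74 ± 0.04, from 70.5 to 118 CPM) and, named after its values were seen, the folate carrier Slc46a1 (0.64 ± 0.11). The nucleotide sugar class is the Slc35 family, taken by its number and named after carriers that feed glycosylation in the Golgi. Single members may carry other substrates. Of its 22 genes 11 were called (50%, beside 61.2% of all genes). The called changes of this class stayed under 2-fold, the greatest rise being that of Slc35g1 (log2 0.54 ± 0.15) and the greatest fall that of Slc35e1 (-0.38 ± 0.04). Of the organic ion and lipid carriers 3 of 14 rose and 4 fell (21.4% and 28.6%, beside 31.4% and 29.8% of all genes). The called ones included the fatty acid carrier Slc27a1 (0.33 ± 0.04, 147 ± 5.91 CPM) and the orphan carrier Slc22a23 (-1.52 ± 0.20, 1.20 ± 0.291 CPM).

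**Figure D3:**
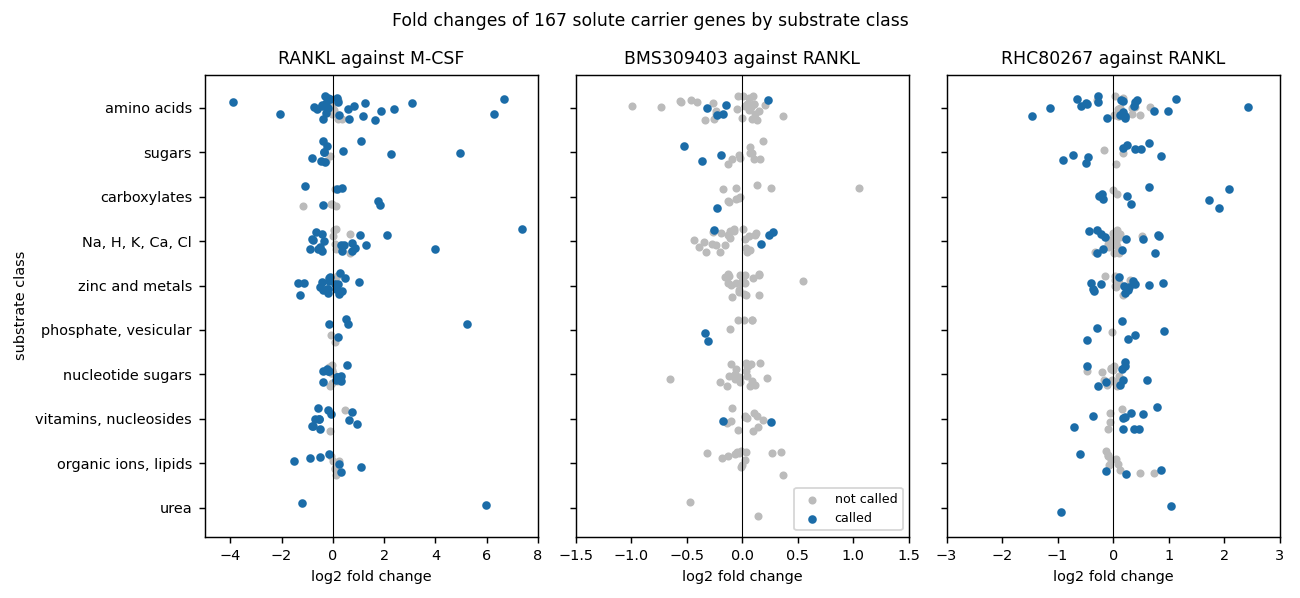
Log2 fold change of each of the 167 genes by substrate class in 3 comparisons, whose horizontal axes differ in range; vertical position within a class is spread only to separate points. Blue points are called and grey points are not; most blue points lie between -1 and 1 except for the upper tail with RANKL, which reaches 7.39.

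Carriers that go by other names served for comparison. The table held 35 such genes, of which 29 were tested, and 7 rose and 13 fell with RANKL. Among the 29, that was 24.1% and 44.8%, beside 31.4% and 29.8% of all genes. By smallest p the leading ones were the organic anion carrier Slco2b1 (log2 -4.64 ± 0.08), the sphingosine 1-phosphate exporter Spns2 (5.92 ± 0.18), Mfsd12 (1.02 ± 0.04) and the phosphate exporter Xpr1 (1.22 ± 0.05). The accessory proteins of the lactate carriers rose slightly, Bsg by 0.23 ± 0.04 and Emb by 0.50 ± 0.04.

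The second comparison sets BMS309403 with RANKL against RANKL alone and asks which carrier genes the FABP4 inhibitor moved. It shares the RANKL libraries with the comparison above and with the one for RHC80267, so the values of the 3 are given side by side and no agreement between them is read as a result. Of the 167 genes 12 fell and 5 rose, 10.2% of the members, beside 7.26% of all genes tested. The shares by direction were 7.19% lower and 2.99% higher, beside 3.76% and 3.51% of all genes. The log2 fold changes of these 17 lay between -0.52 and 0.28, and the median was -0.0175 for the members and -0.0056 for all genes. The fallers were Slc5a3, Slc45a3, Slc18a1, the amino acid family member Slc43a3, Slc20a2, Slc9b2, Slc1a5, Slc16a1, Slc37a2, Slc38a2, Slc44a1 and Slc6a8, and the risers were Slc26a11, Slc46a3, Slc9a9, Slc15a3 and the mitochondrial sodium/calcium exchanger Slc8b1.

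The myo-inositol carrier Slc5a3 had the most negative log2 fold change of the 17. Its libraries had 23.1, 22.5 and 22.1 CPM with BMS309403, all below the RANKL libraries at 35.0, 32.7 and 29.5 CPM (log2 -0.52 ± 0.08, edgeR adjusted p = 0.000358). Against M-CSF alone the same gene differed by 2.28 with RANKL. The lysosomal sulphate and chloride carrier Slc26a11 had 68.8, 64.1 and 68.0 CPM beside 51.0, 53.7 and 60.8 CPM (0.28 ± 0.05), and the endosomal exchanger Slc9a9 168, 188 and 174 CPM beside 138, 156 and 155 CPM (0.24 ± 0.05). For Slc15a3 the values were 172, 186 and 169.7 CPM beside 143, 155 and 151 CPM (0.23 ± 0.04). These 4 genes did not overlap between groups, but neither did the others of the 17, except Slc45a3. The 4 are the ones that stayed called in each alternative analysis that was run. Their log2 fold changes over those analyses lay between -0.584 and -0.462 for Slc5a3, 0.225 and 0.355 for Slc26a11, 0.187 and 0.281 for Slc9a9, and 0.198 and 0.269 for Slc15a3.

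The other 13 calls depended on single libraries. Without RANKL replicate 1, in which Slc9b2, Slc37a2, Slc18a1, Slc45a3 and Slc1a5 were all higher than in the other RANKL libraries, 4 of the 17 remained, 3 risers and 1 faller, and 152 and 111 genes of the whole table were called higher and lower in place of 427 and 457. Without BMS309403 replicate 2, 6 of the 17 remained, and without BMS309403 replicate 1, 9 did. Slc9b2 had 128, 124 and 144 CPM with BMS309403, below but close to the RANKL libraries at 182, 146 and 145 CPM (log2 -0.26 ± 0.07, edgeR adjusted p = 0.0288), and without RANKL replicate 1 the difference was -0.14 with an adjusted p of 0.274. Without that library Slc1a5 moved from -0.23 to -0.12 and Slc18a1 from -0.34 to -0.21, and neither was called. Slc37a2, with 551, 544.1 and 600.2 CPM beside 702, 631 and 607 CPM, was called at -0.19 ± 0.05 and had an adjusted p of 0.215 without that library. Summed osteoclast markers were also lower with BMS309403, 8 of the 10 called lower, and macrophage markers higher, 4 of 8. Their part in these differences was not tested.

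**Figure D4:**
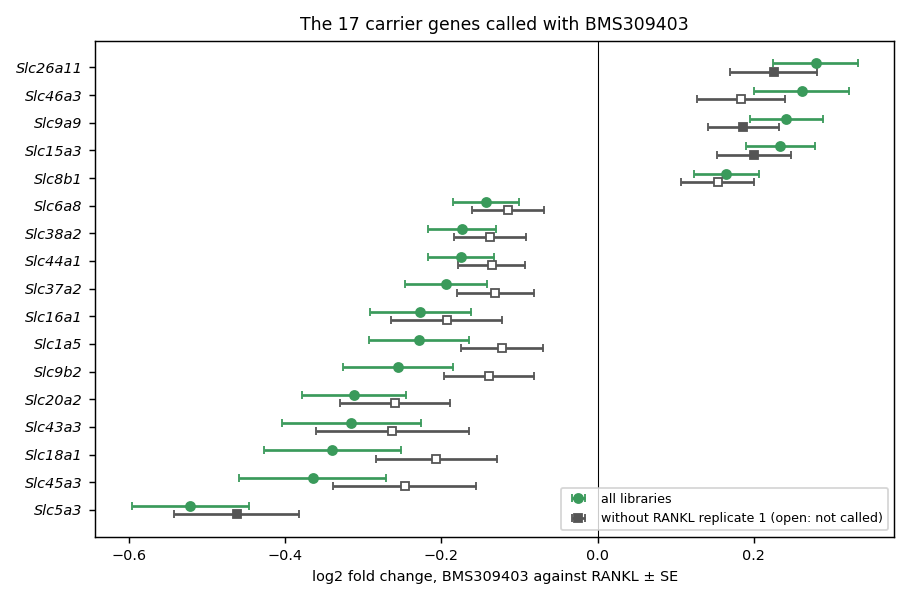
Log2 fold change ± SE of the 17 genes called with BMS309403 in all libraries (green) and after leaving out RANKL replicate 1 (dark squares, filled where still called). Every square lies closer to 0 than its circle, and 4 squares are filled: Slc26a11, Slc9a9, Slc15a3 and Slc5a3.

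By class, the called members were few. With edgeR 0 of the 16 listed zinc carriers and 0 of 22 genes of the nucleotide sugar class were called, beside 7.26% of all genes. An unadjusted p below 0.05 was found for 4 and 3 of them, and DESeq2 and limma-voom called 0 in each set as well. Sugar carriers held 3 fallers of 13. Lysosomal carriers held 3 risers and 1 faller of 13 (23.1% and 7.69%, beside 3.51% and 3.76% of all genes), with a median log2 fold change of 0.0883. Genes for essential amino acids held 2 fallers of 11 (Slc1a5 and Slc38a2). In the sodium/proton exchangers Slc9a9 rose and Slc9b2 fell. Of the 29 carriers under other names 1 rose and 4 fell, with Slco4a1 (log2 -0.59 ± 0.11), Xpr1 (-0.24 ± 0.05), Unc93b1 (0.19 ± 0.04) and the pyrophosphate exporter Ank (-0.19 ± 0.04) having the smallest p.

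The third comparison, RHC80267 with RANKL against RANKL alone, asks the same of the diacylglycerol lipase inhibitor. Here 61 members rose, 36 fell and 70 were not called, so 58.1% were called, beside 49.9% of all genes tested. The risers were 36.5% and the fallers 21.6% of the members, beside 26.9% and 23% of all genes. Changes of more than 2-fold were seen in 6 risers and 2 fallers (3.59% and 1.2%, beside 1.67% and 2.94% of all genes). The median log2 fold change was 0.0912 for the members and 0.0245 for all genes, so more carrier genes were higher than lower. Stromal markers were higher with RHC80267: the 9 summed to between 16.7 and 68.8 CPM, beside at most 15.8 CPM in the libraries of the other groups, and 5 of the 7 tested rose, each more than 2-fold. Replicate 1 of the RHC80267 group was the library at 68.8 CPM, with Col1a1 at 21.1 and Col1a2 at 24.6 CPM. When that library was left out 56 members rose and 32 fell, and 86 of the 97 calls remained with the same direction. Neutrophil markers were lower, between 699.9 and 1043 CPM beside 1464 to 1672 CPM with RANKL alone, and osteoclast markers higher, all 10 of them called. Of the 4 lymphoid markers tested 3 fell more than 2-fold and 1 rose, with sums over 9 genes of 8.85 to 10.3 CPM beside 10.2 to 11.2 CPM, and Ncr1 was at 0 in both groups. Of the 5 erythroid and mast cell markers tested 3 fell more than 2-fold, with sums of 4.63 to 8.20 CPM beside 9.34 to 10.7 CPM. Their part in the values below was not tested.

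The dicarboxylate carrier Slc13a3, which takes up succinate and citrate-cycle intermediates with sodium, stood out among the risers. Its libraries had 99.3, 74.1 and 102 CPM with RHC80267, all above the RANKL libraries at 23.3, 21.8 and 19.97 CPM (log2 2.08 ± 0.09, edgeR adjusted p = 1.08e-13), and the difference was 2.02 ± 0.10 without RHC80267 replicate 1. The monocarboxylate carrier Slc16a5 also rose, at a low level, from 0.240 ± 0.0875 to 0.812 ± 0.213 CPM (1.73 ± 0.47). In all, 6 of 11 carboxylate carriers rose and 3 fell (54.5% and 27.3%, beside 26.9% and 23% of all genes). The lactate carriers were again among the smaller changes, with Slc16a7 up by 0.31 ± 0.04, Slc16a3 lower at -0.25 ± 0.06 and Slc16a1 not called at -0.01 ± 0.06.

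Of the 35 genes in the amino acid class 13 rose and 9 fell (37.1% and 25.7%, beside 26.9% and 23% of all genes). Slc6a9 had 1.78, 1.85 and 1.79 CPM with RHC80267 beside 0.437, 0.110 and 0.448 CPM with RANKL (log2 2.42 ± 0.35), below the M-CSF libraries at 4.37 to 5.56 CPM. Slc6a12 had 15.4, 8.44 and 13.3 CPM beside 5.79, 5.80 and 5.43 CPM (1.13 ± 0.17), a difference of 0.94 ± 0.17 without RHC80267 replicate 1. Slc1a5 had 227, 238 and 221 CPM, above every RANKL library (0.74 ± 0.06). The peptide carrier Slc15a2 rose by 0.98 ± 0.11 to 11.3 ± 0.257 CPM. In the other direction the serotonin carrier Slc6a4 had 2.75, 1.53 and 2.33 CPM beside 5.03, 4.47 and 5.09 CPM (-1.14 ± 0.20), and the amino acid carrier Slc36a4 fell from 125 ± 6.90 to 84.2 ± 3.51 CPM (-0.57 ± 0.04). The heavy chain Slc3a2 (-0.28 ± 0.04), its light chain Slc7a8 (-0.47 ± 0.05), the arginine carrier Slc7a2 (-0.48 ± 0.17) and Slc38a1 (-0.11 ± 0.04) made up the 4 fallers among the 11 genes for essential amino acids, while Slc1a5, Slc7a6 (0.37 ± 0.10) and Slc7a7 (0.18 ± 0.06) were the 3 risers. Of the 11, 27.3% rose and 36.4% fell, beside 26.9% and 23% of all genes. Calls of Slc7a2, Slc38a1 and Slc7a7 were lost when certain single libraries were left out. Slc7a2 was at -0.28 without RHC80267 replicate 1 and at -0.78 without replicate 3 of that group, and Slc7a7 at 0.12 without RANKL replicate 1.

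Of the 13 lysosomal carriers 7 rose with RHC80267, 3 fell and 3 were not called. The risers were 53.8% and the fallers 23.1%, beside 26.9% and 23% of all genes. Slc15a3, a carrier of histidine and bacterial peptides known from innate immunity, had 52.3, 55.7 and 54.9 CPM beside 143, 155 and 151 CPM with RANKL and 206, 198 and 189 CPM with M-CSF alone. Its fall of -1.46 ± 0.05 on the log2 scale (edgeR adjusted p = 2.45e-15) was the most negative of the called members, and it was -1.44 ± 0.06 without RHC80267 replicate 1. The glucose family member Slc2a6 fell from 39.3 ± 1.68 to 21.1 ± 0.457 CPM (-0.90 ± 0.08) and Slc17a5 from 86.9 ± 1.96 to 71.3 ± 4.81 CPM (-0.29 ± 0.05). Rises were smaller: Slc37a2 had 883, 982 and 882 CPM (0.50 ± 0.05), Slc48a1 391, 396 and 386 CPM (0.22 ± 0.04), and Slc38a7, Slc36a1, Slc46a3, Slc2a8 and Slc15a4 each rose by between 0.17 and 0.21, where the calls of Slc46a3, Slc2a8 and Slc15a4 were lost in some alternatives. Without RANKL replicate 1 Slc46a3 was at 0.10, and without RANKL replicate 2 Slc2a8 was at 0.11. Slc37a3, which with a partner protein releases bisphosphonate drugs from the lysosome and was not on the lysosomal list, fell from 29.7 ± 1.44 to 18.1 ± 0.962 CPM (-0.72 ± 0.07). Fcgr1 and Cd14, macrophage markers, also fell with RHC80267 (-1.29 ± 0.06 and -0.79 ± 0.05), while Apoe and C1qa rose (0.34 ± 0.05 and 0.26 ± 0.05).

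**Figure D5:**
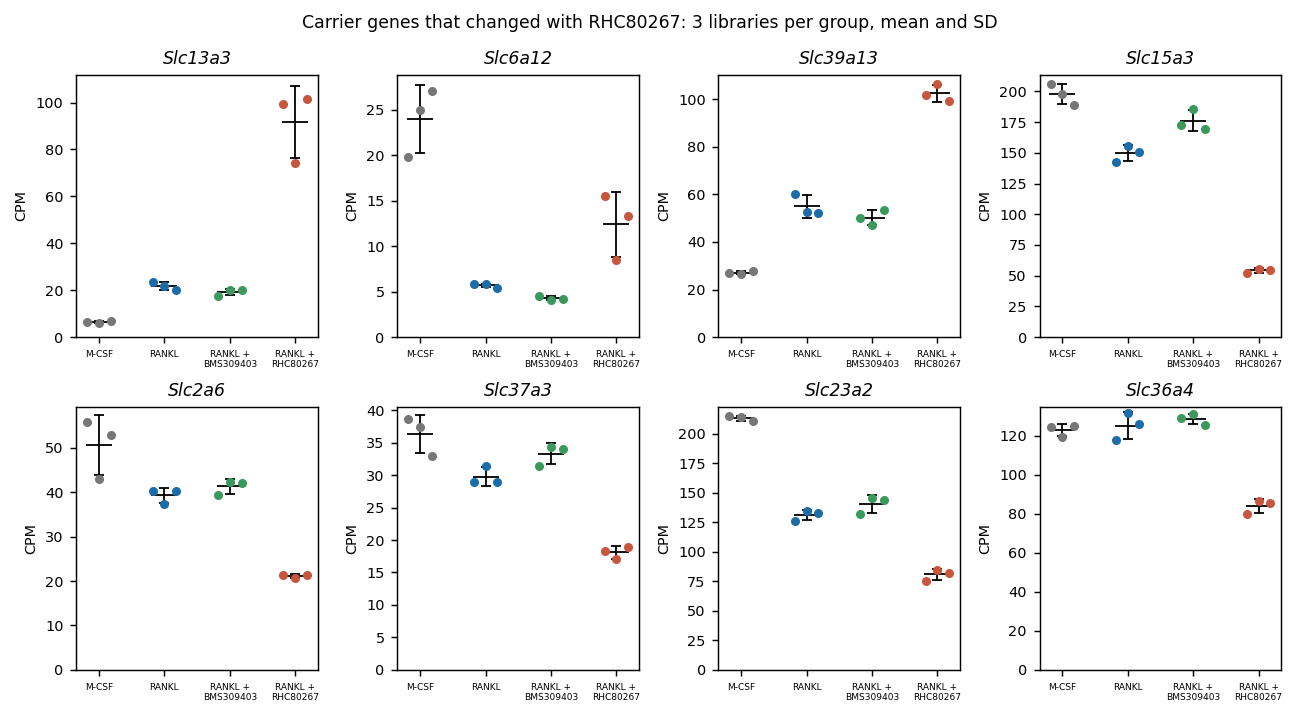
Levels in CPM (linear axis from 0) of 8 carrier genes in each library by group, with the mean ± SD. Slc13a3 and Slc39a13 are highest with RHC80267 and Slc15a3, Slc2a6, Slc37a3, Slc23a2 and Slc36a4 are lowest there, and Slc6a12 is highest with M-CSF alone.

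Ion, sugar and vesicular carriers that were high with RANKL are given next, with the RANKL libraries shared by both comparisons. Slc9b2 had 275, 301 and 262 CPM with RHC80267 beside 182, 146 and 145 CPM (log2 0.83 ± 0.07, and 0.84 ± 0.08 without RHC80267 replicate 1). The groups did not overlap for it, nor for Slc45a3 (0.86 ± 0.08, 34.3 ± 1.37 CPM), Slc12a5 (0.81 ± 0.10, 17.2 ± 2.25 CPM) or Slc5a3 (0.64 ± 0.07, 50.3 ± 2.44 CPM). Slc18a1 rose by 0.38 ± 0.08 and the polyamine carrier Slc18b1 by 0.91 ± 0.18 to 4.06 ± 0.818 CPM. Other genes that were higher with RANKL than with M-CSF went down with RHC80267. The bicarbonate carrier Slc4a7 fell (-0.29 ± 0.05, 102 ± 5.35 CPM) and the phosphate carrier Slc20a1 fell (-0.47 ± 0.04, 53.6 ± 1.34 CPM). Slc44a1, at 204 ± 5.66 CPM, was not called (-0.06 ± 0.04). The urea carriers went in opposite directions, Slc14a2 rising by 1.04 ± 0.18 to 5.71 ± 1.22 CPM and Slc14a1 changing by -0.94 ± 0.19 to 1.84 ± 0.132 CPM.

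Among the listed zinc carriers 8 of 16 rose and 3 fell with RHC80267 (50% and 18.8%, beside 26.9% and 23% of all genes). Slc39a13 had 102, 106 and 99.3 CPM beside 60.3, 52.4 and 52.0 CPM (0.90 ± 0.05). Slc39a4 rose from 10.4 ± 1.15 to 16.3 ± 1.90 CPM (0.64 ± 0.10), which is below its M-CSF level of 23.0 ± 1.10 CPM, while Slc39a8, at 6.39 ± 1.248 CPM, was not called (0.29 ± 0.15). The fallers were Slc30a4 (-0.40 ± 0.08), Slc39a14 (-0.37 ± 0.09) and Slc39a6 (-0.22 ± 0.05), and the low-affinity copper carrier Slc31a2 fell as well (-0.35 ± 0.05). In the vitamin and nucleoside class 8 of 14 rose and 2 fell (57.1% and 14.3%, beside 26.9% and 23% of all genes). The vitamin C carrier Slc23a2 had 75.6, 84.9 and 82.3 CPM beside 127, 135 and 133 CPM (-0.70 ± 0.05), and Slc28a2 fell by 0.37 ± 0.08, whereas Slc29a1 rose by 0.46 ± 0.04 to 163 ± 5.86 CPM and the folate carrier Slc19a1 by 0.54 ± 0.10 to 12.9 ± 0.546 CPM. Slc35f6, abundant among the Slc35 family, fell from 172 ± 4.19 to 124 ± 2.36 CPM (-0.47 ± 0.04). Sugar carriers held 6 risers and 4 fallers of 13, and the sodium/proton exchangers 2 of each among 7. Shares were 46.2% and 30.8% for sugar carriers and 28.6% each for exchangers, beside 26.9% and 23% of all genes. Of the carriers under other names 10 rose and 9 fell (34.5% and 31%). By smallest p they were led by Slco2b1 (1.58 ± 0.11), Xpr1 (0.59 ± 0.05), Flvcr1 (-0.41 ± 0.04) and Slco4a1 (0.83 ± 0.09).

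RHC80267 and BMS309403, both at 1 µM, a dose that need not be of equal strength, were compared next. With RHC80267 70 members were higher and 40 lower than with BMS309403, 65.9% called, beside 55.5% of all genes (30.1% higher and 25.5% lower). Differences over 2-fold were seen in 14 and 2 members, 8.38% and 1.2%, beside 3.18% and 3.2% of all genes. Among the widest were those of Slc13a3 (log2 2.26 ± 0.10) and Slc6a9 (2.05 ± 0.33) above and Slc15a3 (-1.70 ± 0.05) and Slc14a1 (-1.08 ± 0.19) below. For Slc5a3 the 2 inhibitors differed by 1.16 ± 0.07, for Slc45a3 by 1.22 ± 0.09 and for Slc9b2 by 1.08 ± 0.07, and in these genes every BMS309403 library was below every RHC80267 library. The listed zinc carriers held 11 higher and 2 lower of 16, lysosomal carriers 3 and 5 of 13, and those for essential amino acids 5 and 4 of 11. Among the higher ones, calls of the zinc carriers Slc30a5, Slc30a7 and Slc39a7 (log2 0.09, 0.10 and 0.10), of the lysosomal Slc36a1 and Slc2a8 (0.13 and 0.21) and of Slc7a5 (0.41) were lost in some alternatives. Stromal markers were higher than with BMS309403 too, 6 of 7 called. Of the 29 carriers under other names 11 were higher and 9 lower, with Xpr1 (0.83 ± 0.05), Slco4a1 (1.42 ± 0.10), Slco2b1 (1.47 ± 0.11) and Spns2 (0.92 ± 0.08) having the smallest p. For Slc43a2 (-0.02 ± 0.04) no difference between the inhibitors was called.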

How the data were processed

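The authors' table, per the file headers, lists read counts for each gene in 12 libraries. Because 9.49% to 9.89% of the values in a library were fractional, these deposited values were taken for expected counts from RSEM. The authors also deposited FPKM values, used here only to compare levels between genes. Per the submitters' processing notes, the tools were Bowtie2, RSEM (version 1.3.1) and DESeq2 (version 1.4.5). The sources used here give neither their order nor the filters. The deposited positions had the same start and end as RefSeq GRCm38.p6 for 132 of the 167 genes, and 6 genes on an unplaced sequence are given no position.

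Expected counts were rounded, 4402 genes with low counts were removed (filterByExpr by group) and 12168 were tested. The quasi-likelihood test of edgeR 4.0.16 (R 4.3.3) was fitted once to all 12 libraries with TMM factors and a group term alone, leaving 8 residual degrees of freedom and a biological coefficient of variation of 0.0371. P-values are 2-sided and Benjamini-Hochberg adjusted over all genes tested. The procedure was tested on simulated counts. Alternatives were RLE factors, other filters, a replicate block, limma-voom (limma 3.58.1), DESeq2 1.42.0, a fit on the compared groups only, and leaving out each library.

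Genes, lists and substrate classes were chosen with earlier results of these data known. Substrate classes follow the family number in the symbol, so a member can differ in substrate from the name of its class. The 4 genes that are not carriers are counted in the classes of their family numbers. The genes named are, in each comparison, the 15 highest and 15 lowest called changes with at least 1 CPM and no overlap between groups, the 3 smallest p in each class, a short list of carriers known from bone or macrophages, the members of 4 lists (lysosomal, essential amino acid, zinc, sodium/proton exchange), and the 10 highest by FPKM in each group. Others are marked where they occur, and some members are not reported here by name. Replicate pairs differed by more than sampling noise, so no library was counted as a copy of another.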

Additional observations from a re-analysis of the deposited data

How the results depend on the processing

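Leaving out single libraries moved the counts of called members by more than 1.5 times in the comparison of BMS309403 with RANKL. There, the number that rose ran from 3 to 7 and the number that fell from 1 to 14, against 5 and 12 with all libraries. The low values belonged to the fits without RANKL replicate 1 (3 and 1) and, for the fallers, without BMS309403 replicate 2 (2) and without BMS309403 replicate 1 (7), and the cause was not tested. Over the whole table the same fits called 152 higher and 111 lower, 171 and 145, and 357 and 299 genes. In the other comparisons the counts stayed within 1.5 times under each alternative, with leave-one-out ranges of 51 to 54 risers and 60 to 63 fallers for RANKL, 50 to 60 and 31 to 36 for RHC80267 against RANKL, and 51 to 63 and 36 to 40 for RHC80267 against BMS309403. DESeq2 called 49 and 59, 6 and 10, 48 and 32, and 52 and 37 members, in the order RANKL, BMS309403, RHC80267 and RHC80267 against BMS309403. No named gene that was called reversed its sign under an alternative. Of the named members called, 81 of 93, 4 of 17, 63 of 78 and 70 of 87 kept their call under every alternative run. Replicate numbers are shared between groups, and the labels state no pairing. The deviations of libraries with the same number correlated between -0.092 and 0.094, and those with different numbers between -0.072 and 0.105. No effect shared by a number was seen, but with 3 libraries in a group this cannot exclude a pairing. With the replicate block the counts were 58 and 62, 6 and 11, 61 and 36, and 68 and 40. Depth limits the members with a mean below 1 CPM, whose log2 fold changes have the larger SEs.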
